A study of Mus musculus with 12 samples.

Results

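Mouse bone-marrow-derived macrophages (BMDM) given choline were compared with the same kind of cells given phosphate-buffered saline (PBS), across every named gene of the expression table. The comparison takes up 6 of the 12 RNA-seq libraries of the study, 3 choline and 3 PBS, chosen by their labels. The other 6 libraries are from tumors and are not used below. The table lists 19496 named genes, and 10028 of them, those reaching 1 FPKM in no fewer than 3 libraries, were tested. FPKM is the number of fragments mapped to a gene, scaled by the length of the gene and the size of the library, so it is a level per length. Per the study's design text, the BMDM received LPS and IFN-γ for 4 h, after which fresh RPMI-1640 medium with 200 µM choline replaced it for 24 h. The PBS group is labelled only by its treatment. Whether it had the same LPS and IFN-γ exposure, and for how long PBS was given, is not stated in the labels, and neither are the strain, sex and age of the marrow donors. The labels enter BMDMs under a cell line tag. The labels do not say whether the libraries of a group are from different mice or dishes, and the p-values therefore cover only the spread between libraries, which may be technical. Within this set the PBS libraries are called 1, a and b, because 2 of their columns carry the same heading.

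Choline is a nutrient that cells take up through transporters, phosphorylate with choline kinase and build into phosphatidylcholine, the main phospholipid of their membranes. Macrophages are phagocytes rich in lysosomes, and LPS together with IFN-γ is the usual laboratory stimulus for their inflammatory state, in which they make cytokines, nitric oxide and lactate. The question put by the comparison is which transcripts differ between the choline and PBS groups. Because the exposure of the PBS cells to LPS and IFN-γ is not stated, choline and that exposure cannot be told apart.

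The cell label was checked against marker genes. Of 15 listed macrophage markers, 12 were well above the threshold in both groups. Csf1r, the receptor for the macrophage growth factor, averaged 191 ± 7.68 FPKM in choline libraries and 203 ± 6.99 FPKM in PBS libraries (SD, n = 3 each, as for every such value below). Adgre1, which encodes F4/80, averaged 79.0 ± 3.96 FPKM with choline and 62.5 ± 1.06 FPKM with PBS, and Cd68 344 ± 4.90 FPKM with choline and 345 ± 13.5 FPKM with PBS. The other 3 stayed under 1 FPKM in every library. Among them were Mertk, an efferocytosis receptor (0, 0.00384 and 0.00773 FPKM with choline, 0.00382, 0 and 0 FPKM with PBS), and Mrc1, the mannose receptor (0.0053, 0 and 0.00536 FPKM with choline, 0.0106, 0.0107 and 0.0107 FPKM with PBS). Several IFN-γ-induced genes were near 0 in both groups, while other activation genes given below, such as Nos2 and Cxcl10, were well expressed. Cxcl9, an IFN-γ-induced chemokine, was listed at 0 in every choline library and at 0, 0 and 0.00981 FPKM in the PBS libraries. Ciita, the IFN-γ-induced regulator of MHC class II, was at 0.00288, 0.0029 and 0.00292 FPKM with choline and 0.00288, 0 and 0 FPKM with PBS, and the class II gene H2-Aa at 0.075, 0.0503 and 0 FPKM with choline and 0, 0.0503 and 0.0253 FPKM with PBS. Tnf, a cytokine gene induced by LPS, had 826, 747 and 735 FPKM in the 3 choline libraries and 667, 676 and 649.8 FPKM in the 3 PBS libraries. The 10 dendritic cell markers, 6 stromal, 4 endothelial, 3 mast cell, 3 erythroid, 2 NK cell and 2 epithelial markers listed were all under 1 FPKM in every library. So were 6 of 7 neutrophil, 3 of 4 monocyte, 4 of 5 T cell and 4 of 5 B cell markers. The exceptions that were tested were the neutrophil gene S100a8, at 13.5 ± 1.82 FPKM with choline and 19.6 ± 2.15 FPKM with PBS, the T cell kinase gene Lck, at 3.82 ± 0.0358 FPKM with choline and 2.37 ± 0.175 FPKM with PBS, and the B cell adaptor gene Blnk, at 12 ± 0.596 FPKM with choline and 9.49 ± 0.315 FPKM with PBS. The part of other cells in the results was not tested beyond these levels.

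Most of the genes tested shifted, and most of them by a little. With limma on log2(FPKM + 0.1) and Benjamini-Hochberg adjustment over all 10028 genes at 0.05, 2824 genes were higher (28.2% of those tested) and 2930 lower (29.2%) with choline. Together that is 5754 genes, 57.4% of those tested. Fold changes here are choline over PBS on the log2(FPKM + 0.1) scale, which understates the change of low genes. The median change over all genes was 0.00 and the median size of change among called genes was 0.34, with a median standard error of 0.0615 per gene. Of the called genes, 1667 (29.0%) changed by less than 0.25 on the log2 scale. A change of at least 2-fold was called in 114 genes higher (1.14%) and 104 genes lower (1.04%), and a change of at least 4-fold, 2 on the log2 scale, in 8 genes higher and 8 lower. The 3 libraries of one group did not overlap the 3 of the other in 6426 genes (64.1%). The first principal component held 81.2% of the variance and parted choline from PBS. Depth was even, with 34961195 to 35370820 reads in named genes in choline libraries and 34994757 to 35393902 in PBS libraries, recovered from the FPKM values, and a tested gene had a median of 1456 reads per library. Pairs of libraries within a group correlated at 0.996 to 0.997 over genes.

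**Figure D1:**
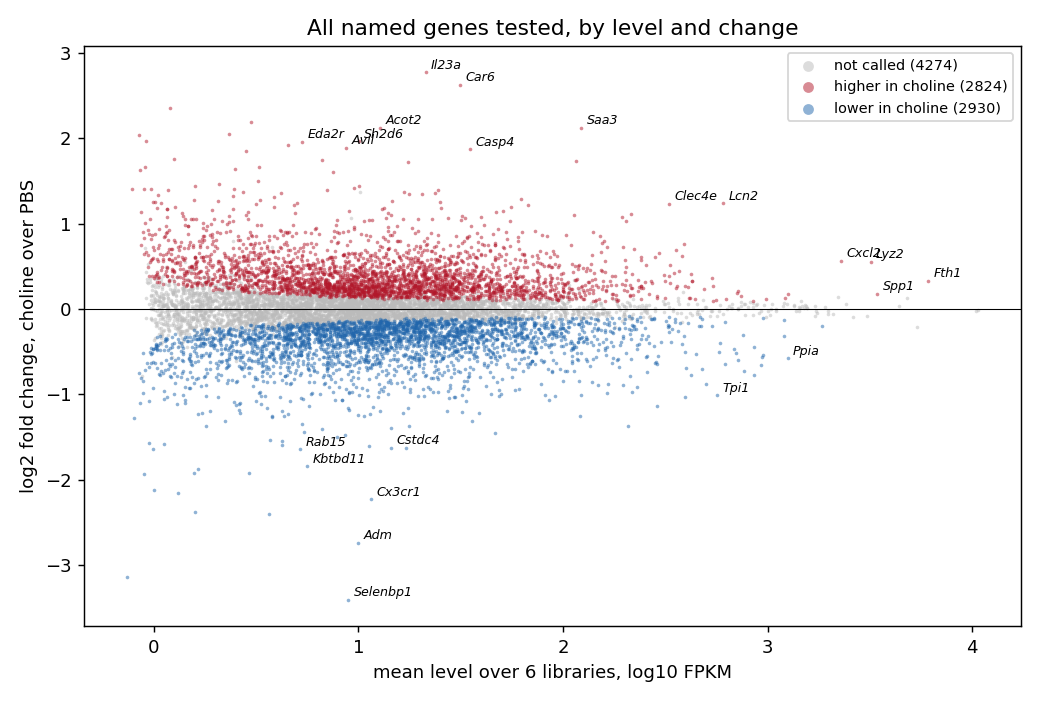
Each point is 1 of the 10028 tested genes, with its mean level over the 6 libraries on the horizontal axis (log10 FPKM) and its log2 fold change, choline over PBS, on the vertical axis. Genes called higher (2824, red) and lower (2930, blue) spread about evenly around 0, few reach 2-fold, and the largest changes are in genes of low to middle level, Il23a and Car6 above and Selenbp1 and Adm below.

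The genes ranked here were called, averaged at least 5 FPKM in the higher group and had no overlap between groups. Unnamed gene models were left out. The highest fold change was that of Il23a, which encodes the p19 subunit of the cytokine IL-23. It had 37.3, 39.9 and 34.7 FPKM in the choline libraries, against 5.51, 5.74 and 4.89 FPKM in the PBS libraries. The groups were far apart, and the log2 change was 2.77 ± 0.0717 (SE; limma, adjusted p = 2.4e-08), 6.83-fold. Car6, a secreted carbonic anhydrase, had 53.3, 53.3 and 56.5 FPKM with choline and 8.37, 9.53 and 8.36 FPKM with PBS, a log2 change of 2.62 ± 0.0585 (limma, adjusted p = 1.78e-08). Acot2, a mitochondrial thioesterase that cleaves acyl-CoA, had 21.0, 21.9 and 19.8 FPKM with choline and 4.62, 5.47 and 4.16 FPKM with PBS. Saa3, the acute-phase serum amyloid A that macrophages make, had 199, 205 and 195 FPKM with choline and 45.8, 51.9 and 40.5 FPKM with PBS. They changed by 2.12 ± 0.0908 and 2.12 ± 0.0775 on the log2 scale. Every choline library lay above every PBS library in all 4 genes, which the rule for ranking required.

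Casp4, the mouse caspase-11 that senses LPS in the cytosol, had 54.0, 55.6 and 56.2 FPKM with choline and 16.2, 14.3 and 14.7 FPKM with PBS, a log2 change of 1.87 ± 0.0522 (limma, adjusted p = 2.4e-08). Fcgr1, the high-affinity IgG receptor, had 27.5, 26.4 and 26.7 FPKM with choline and 8.46, 7.77 and 7.99 FPKM with PBS, a log2 change of 1.72. Gadd45a, a growth arrest gene induced by DNA damage and other stress, had 168, 181 and 181 FPKM with choline and 54.8, 54.8 and 50.2 FPKM with PBS, a log2 change of 1.73. None of these groups overlapped, again by the rule. Eda2r, a member of the TNF receptor superfamily, averaged 8.5 ± 0.263 FPKM with choline and 2.11 ± 0.201 FPKM with PBS (log2 change 1.96). Avil, the actin-binding protein advillin, averaged 13.7 ± 0.977 FPKM with choline and 3.63 ± 0.245 FPKM with PBS (log2 change 1.89), and Sh2d6, an SH2 domain protein, 16.1 ± 1.07 FPKM with choline and 4.05 ± 0.356 FPKM with PBS (log2 change 1.97). Slc46a3, a lysosomal transporter, averaged 5.00 ± 0.131 FPKM with choline and 1.51 ± 0.0627 FPKM with PBS, and Stard5, a sterol-binding protein, 13.9 ± 0.685 FPKM with choline and 5.15 ± 0.587 FPKM with PBS. Lrrc75a, Pi16 and Angptl6 completed the 15 highest, with log2 changes of 1.61, 1.44 and 1.40.

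By the same rule, the lowest fold change was that of Selenbp1, a selenium-binding methanethiol oxidase. It had 1.86, 1.48 and 1.08 FPKM in the choline libraries, against 18.6, 13.6 and 17.0 FPKM in the PBS libraries, a log2 change of -3.41 ± 0.18 (SE; limma, adjusted p = 1.33e-06). Adm, which encodes the vasodilator peptide adrenomedullin, had 2.77, 2.75 and 2.07 FPKM with choline and 20.7, 15.2 and 16.5 FPKM with PBS, a log2 change of -2.74 ± 0.137 (limma, adjusted p = 8.75e-07). Cx3cr1, the receptor for fractalkine, had 4.49, 3.74 and 3.80 FPKM with choline and 19.5, 19.3 and 18.6 FPKM with PBS, a log2 change of -2.23 ± 0.0723 (limma, adjusted p = 6.34e-08). In all 3 genes every choline library lay far below every PBS library, the lack of overlap being part of the rule.

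Acat2, the cytosolic thiolase at the entry to sterol synthesis, had 8.31, 8.55 and 8.14 FPKM with choline and 25.2, 25.4 and 27.1 FPKM with PBS. Lrp8, a receptor of the LDL receptor family, averaged 2.06 ± 0.159 FPKM with choline and 6.42 ± 0.317 FPKM with PBS. Tnfrsf9, the costimulatory receptor 4-1BB, averaged 1.84 ± 0.22 FPKM with choline and 5.56 ± 0.847 FPKM with PBS. The mitochondrial adenylate kinase Ak4 and Ankrd37, a target of hypoxia-inducible factor, changed by -1.5 and -1.54. Kbtbd11, the endosomal GTPase gene Rab15, the kinase gene Dmpk and the corepressor gene Rcor2 changed by -1.84, -1.64, -1.61 and -1.44. Cstdc4, at 7.76, 9.86 and 4.27 FPKM with choline and 20.8, 19.7 and 24.2 FPKM with PBS, has close copies in the stefin cluster and is uncertain.

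**Figure D2:**
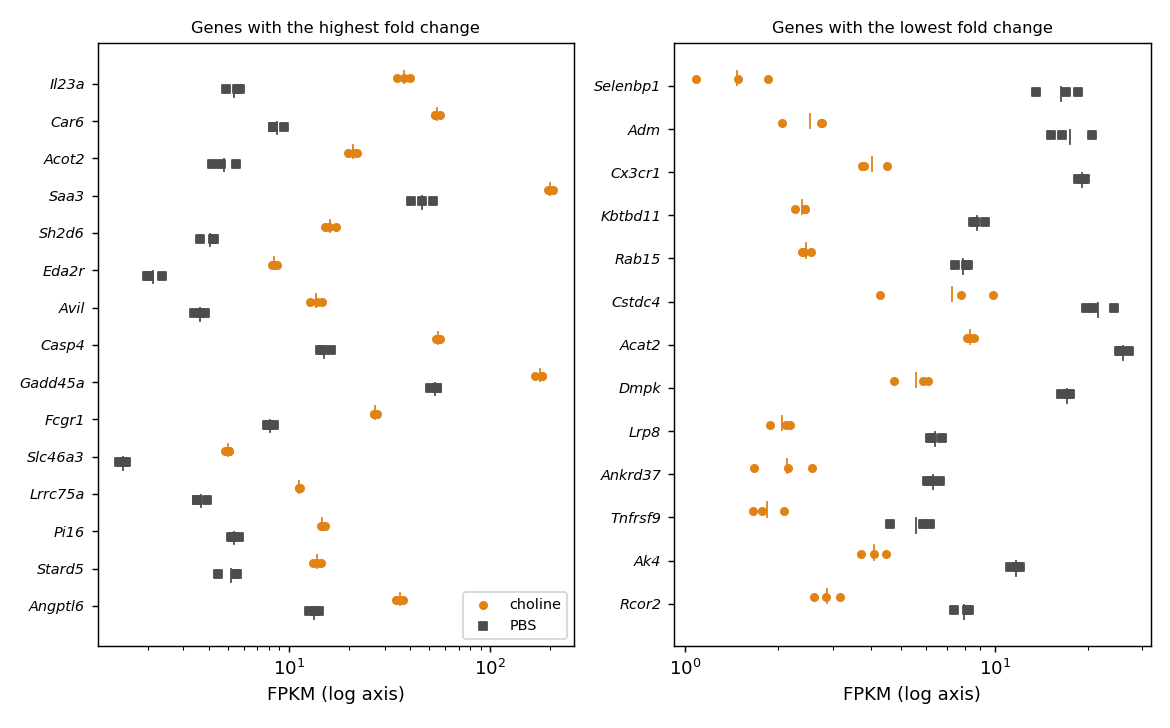
Level in each library of the genes reported at both ends of the fold change ranking (FPKM, log axis), with choline as orange circles above PBS as grey squares and a vertical tick at each group's mean. In no gene do the groups overlap, since that was part of the rule for naming them, and the widest gap is that of Selenbp1.

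The promoters of 4 of these genes are shown because each holds a motif that came up in the search described further on. The windows run from 250 bases before to 50 bases after the annotated start and come from RefSeq (build GRCm38.p6), written 5′ to 3′ on the gene's own strand. In Avil (chr10:127000459-127000758, plus strand) and Pi16 (chr17:29318632-29318931, plus strand) the capitals mark TGATGNAA or its reverse complement, the core of the amino acid response element bound by ATF4 and C/EBP factors.
Avil: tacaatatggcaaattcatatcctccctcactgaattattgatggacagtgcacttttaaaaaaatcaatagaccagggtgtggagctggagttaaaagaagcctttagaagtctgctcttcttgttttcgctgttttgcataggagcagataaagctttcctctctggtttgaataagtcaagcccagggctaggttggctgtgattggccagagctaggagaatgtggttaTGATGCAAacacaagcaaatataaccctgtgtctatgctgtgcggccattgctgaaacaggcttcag
Pi16: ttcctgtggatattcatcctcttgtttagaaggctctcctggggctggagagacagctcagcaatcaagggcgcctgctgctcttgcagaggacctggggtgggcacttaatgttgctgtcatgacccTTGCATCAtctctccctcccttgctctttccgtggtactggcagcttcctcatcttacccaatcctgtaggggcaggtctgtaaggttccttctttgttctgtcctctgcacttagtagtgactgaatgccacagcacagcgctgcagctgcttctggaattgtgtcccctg
In Ankrd37 (chr8:45999801-46000100, minus strand) and Selenbp1 (chr3:94932833-94933132, plus strand) the capitals mark ACGTG or its reverse complement, the core bound by hypoxia-inducible factors.
Ankrd37: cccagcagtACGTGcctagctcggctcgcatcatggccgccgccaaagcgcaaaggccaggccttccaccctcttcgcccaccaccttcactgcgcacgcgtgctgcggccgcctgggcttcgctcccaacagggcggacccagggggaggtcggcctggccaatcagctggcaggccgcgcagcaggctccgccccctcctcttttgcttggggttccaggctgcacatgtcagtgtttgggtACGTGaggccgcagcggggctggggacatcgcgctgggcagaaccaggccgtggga
Selenbp1: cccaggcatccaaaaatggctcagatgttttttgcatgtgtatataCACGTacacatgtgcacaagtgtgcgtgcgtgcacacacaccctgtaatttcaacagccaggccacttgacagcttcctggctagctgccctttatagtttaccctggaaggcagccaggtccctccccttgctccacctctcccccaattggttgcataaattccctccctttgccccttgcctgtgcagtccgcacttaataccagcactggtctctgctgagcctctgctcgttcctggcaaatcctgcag
The match in Avil began 17 bases before the annotated start and that in Pi16 122 bases before it. Ankrd37 had 2 matches, 241 and 6 bases before its start, and Selenbp1 had 1, 204 bases before it. Over all tested genes with a window, TGATGNAA was in 2.19% and ACGTG in 27.8%. TGATGNAA was in 11.4% of windows of genes higher by at least 2-fold. ACGTG was in 28.4% of windows of genes lower by at least 2-fold, near its share over all. A match is a string of letters and does not show that a factor bound there.

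In absolute level the largest gain was that of Fth1, the ferritin heavy chain that stores iron, which gained 1382 FPKM, with 7061, 6689 and 6632 FPKM in choline libraries and 5492, 5589.6 and 5156 FPKM in PBS libraries. Lyz2, lysozyme, gained 1204 FPKM, with 3988, 3766 and 3619 FPKM with choline and 2614, 2623 and 2523 FPKM with PBS. The neutrophil-attracting chemokine gene Cxcl2 gained 878 FPKM, with 2778, 2667 and 2688 FPKM with choline and 1836, 1857 and 1805 FPKM with PBS. Choline libraries were above PBS libraries throughout. Lcn2, the lipocalin that binds bacterial siderophores, had 862, 857 and 827 FPKM with choline and 366, 359.6 and 354 FPKM with PBS, 2.36-fold. Clec4e, the glycolipid receptor Mincle, had 447, 462 and 472 FPKM with choline and 193, 196 and 199 FPKM with PBS, 2.35-fold. The autophagy receptor gene Sqstm1, the progranulin gene Grn, the initiation factor gene Eif1 and the survival gene Bcl2a1b gained 199.7, 167, 163 and 158 FPKM. Spp1, osteopontin, gained 413 FPKM at a log2 change of only 0.18, and quantile normalization turned that change to -0.036 with no call, while the gain of Fth1 became 0.09 on the log2 scale, also with no call.

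The largest loss in absolute level was that of Ppia, cyclophilin A, which changed by -496 FPKM, with 1035, 1013 and 966 FPKM in choline libraries and 1528, 1519 and 1456 FPKM in PBS libraries. Vim, the intermediate filament vimentin, changed by -444 FPKM, with 649, 628 and 616 FPKM with choline and 1094, 1049 and 1083 FPKM with PBS. Hsp90ab1, a cytosolic chaperone, had 744, 714 and 711 FPKM with choline and 1131, 1189 and 1088 FPKM with PBS. The motility protein gene S100a4 changed by -375 FPKM and P4hb, protein disulfide isomerase, by -295 FPKM. The glycolytic enzyme genes Tpi1, Pgk1, Pkm and Aldoa changed by -382, -353, -292 and -273 FPKM, and Ptma by -363 FPKM. Ppia, Ptma and several glycolytic genes have many near-identical pseudogenes, so their levels are uncertain where reads could be split between copies. Of the 5 most abundant genes Fth1 alone was called. Eef1a1, a translation elongation factor, averaged 10329.6 ± 132 FPKM with choline and 10511 ± 127 FPKM with PBS, and the mitochondrially encoded COX1 10619 ± 429 FPKM with choline and 10694 ± 806 FPKM with PBS, and neither passed the test. Nor did the mitochondrially encoded ND1 and CYTB, with log2 changes of -0.21 and 0.12, though each was called in some fits that left out 1 library.

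The gene lists that follow are described by counts, beside 28.2% higher and 29.2% lower over all genes tested, and by their median log2 change, beside 0.00 over all genes. No list was tested as a set. The lists were chosen with earlier results of these data known. The 4 lists with the lowest medians had no member called higher. Annotated pathways on the same subjects were less one-sided. In HIF-1 signaling 37 of 70 genes were lower and 15 higher (median -0.20), and in glycolysis and gluconeogenesis 21 of 42 and 7 (median -0.14). In the cell cycle pathway 60 of 112 were lower and 15 higher (median -0.21), and in steroid biosynthesis 14 of 16 and 2 (median -0.53). Of 21 hypoxia response genes tested, 20 were lower (median -0.86), 7 of them by at least 2-fold. Egln1, the oxygen-sensing prolyl hydroxylase, had 7.40, 7.47 and 7.06 FPKM with choline and 16, 15.8 and 17.1 FPKM with PBS, and Pfkfb3, a driver of glycolytic flux, 8.41, 7.34 and 7.45 FPKM with choline and 18.1, 17.2 and 18.2 FPKM with PBS. Of 19 glycolysis genes 16 were lower (median -0.65). Pfkl, a phosphofructokinase, averaged 23.2 ± 1.69 FPKM with choline and 54.1 ± 0.542 FPKM with PBS, the glucose transporter gene Slc2a1 104 ± 3.58 FPKM with choline and 192 ± 2.12 FPKM with PBS, and the lactate exporter gene Slc16a3 55.2 ± 3.64 FPKM with choline and 101 ± 0.725 FPKM with PBS.

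All 23 cholesterol synthesis genes tested were lower (median -0.61), 2 of them by at least 2-fold, as were all 31 mitotic cell cycle genes (median -0.49), none of them by 2-fold. Sqle, squalene epoxidase of the cholesterol pathway, had 32.6, 34.2 and 32.4 FPKM with choline and 56.0, 55.4 and 54.4 FPKM with PBS. The replication helicase genes Mcm4, Mcm6 and Mcm7 changed by -0.80, -0.94 and -0.90 on the log2 scale, and the mitotic cyclin gene Ccnb1 averaged 51.8 ± 1.35 FPKM with choline and 77.3 ± 1.06 FPKM with PBS. Proliferation genes stayed well expressed in both groups, so that Mki67 averaged 54.7 ± 2.24 FPKM with choline and 71.3 ± 1.22 FPKM with PBS. Fewer dividing cells and less RNA per cell cannot be told apart in these bulk libraries. In the nucleotide synthesis list 13 of 22 genes were lower and 1 higher (median -0.26), the exception being Rrm2b, the p53-inducible subunit of ribonucleotide reductase, at 10.9 ± 0.989 FPKM with choline and 5.83 ± 0.701 FPKM with PBS.

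**Figure D3:**
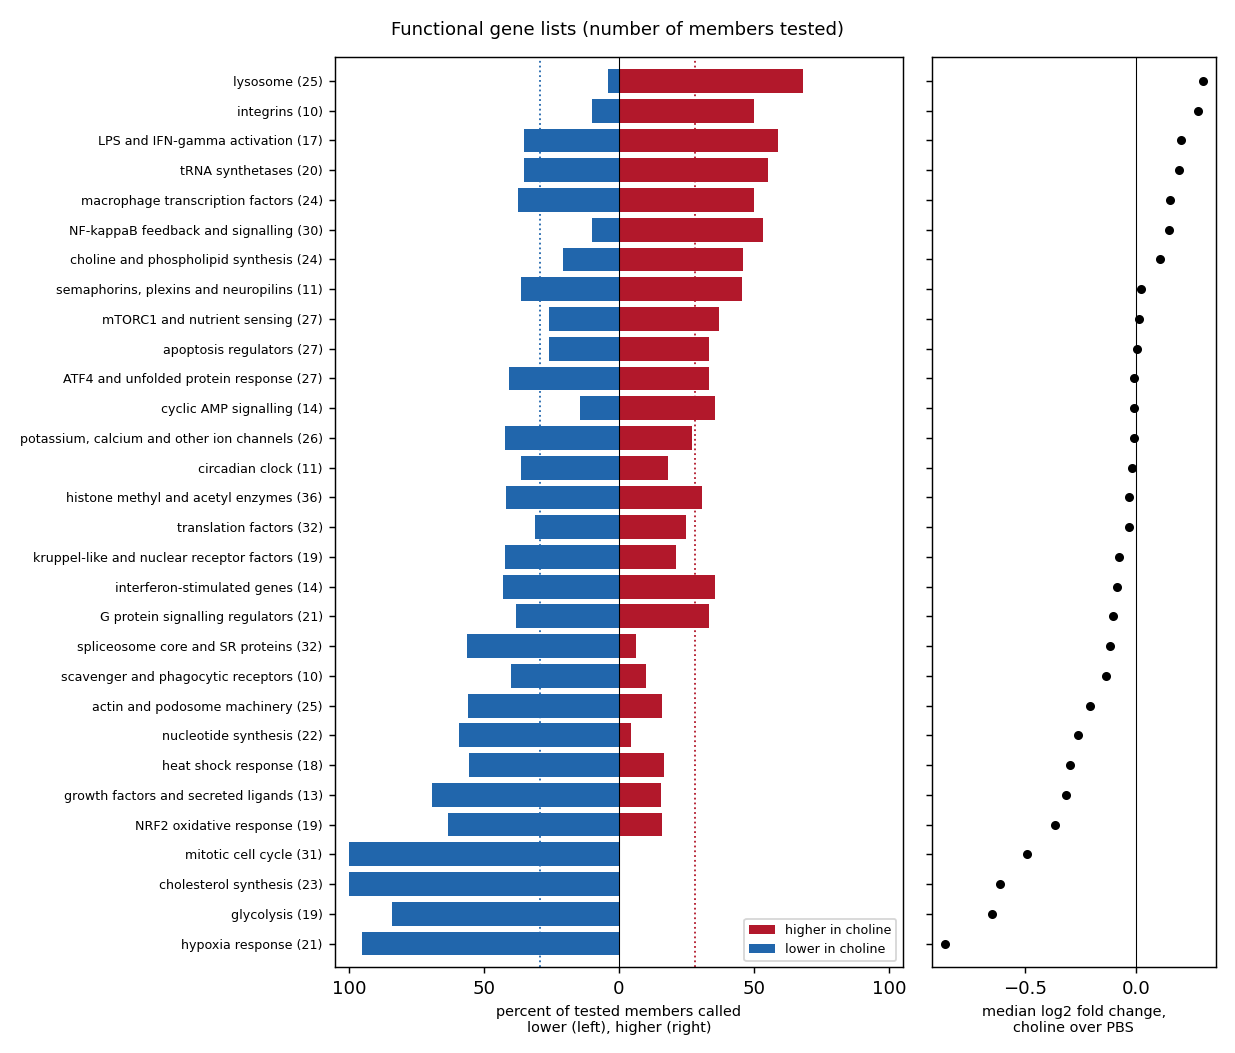
Bars give the percent of tested members of each functional list reported here called lower (left, blue) and higher (right, red) with choline, with the number tested in brackets and dotted lines at the shares over all genes tested (29.2% lower, 28.2% higher). Points give the median log2 fold change, choline over PBS, which runs from -0.86 in the hypoxia list to 0.30 in the lysosome list.

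The lysosome list had the highest median, 0.30, with 17 of 25 genes higher and 1 lower, none by 2-fold. The annotated lysosome pathway was less one-sided, with 56 of 110 genes higher and 16 lower (median 0.15). Gla, the lysosomal galactosidase, averaged 29.9 ± 0.67 FPKM with choline and 17.8 ± 0.697 FPKM with PBS (log2 change 0.74 ± 0.0455). Npc1, which exports cholesterol from the lysosome, averaged 34.5 ± 0.801 FPKM with choline and 22.4 ± 0.797 FPKM with PBS, and the protease cathepsin Z (Ctsz) 426 ± 4.49 FPKM with choline and 313 ± 12.4 FPKM with PBS. A pair of families named by symbol belong to the same organelle. Of 19 subunits of the vacuolar ATPase, the pump that acidifies it, 14 were higher and 1 lower (median 0.30), with Atp6v1d at 85.1 ± 0.613 FPKM with choline and 55.3 ± 1.35 FPKM with PBS. Of 9 cathepsins, 8 were higher and none lower, with Ctsk at 48.3 ± 2.12 FPKM with choline and 30.9 ± 0.397 FPKM with PBS. Some members stand in both the list and these families, so the counts are not independent.

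Genes of NF-κB signalling were mostly higher, 16 of 30 against 3 lower (median 0.15). Traf1, a signalling adaptor of TNF receptors, averaged 58.8 ± 3.36 FPKM with choline and 34.2 ± 1.74 FPKM with PBS, and Nfkbiz, an inducible cofactor of NF-κB, 73.9 ± 2.11 FPKM with choline and 49.8 ± 1.89 FPKM with PBS. The inhibitors Nfkbid and Tnip3 were among the 3 lower genes, at -0.75 and -0.66 on the log2 scale. Inflammatory effectors split. Of 28 LPS and IFN-γ activation genes listed, 17 were tested, of which 10 were higher and 6 lower. Beside Il23a the higher ones included the chemokine gene Cxcl10, with 36.0, 33.1 and 36.6 FPKM with choline and 15.4, 13.8 and 17.4 FPKM with PBS, the costimulatory receptor gene Cd40, with 18.8, 19.1 and 17.7 FPKM with choline and 8.64, 8.52 and 7.31 FPKM with PBS, and Il6, with 17.0, 16.3 and 18.7 FPKM with choline and 12.3, 8.98 and 10.6 FPKM with PBS. Tnf changed by 0.21 (adjusted p = 0.00296 by limma). Il1b went the other way, with 9.13, 7.22 and 7.48 FPKM with choline and 19.6, 19.8 and 23.6 FPKM with PBS, a log2 change of -1.39 ± 0.0997. Nos2, inducible nitric oxide synthase, had 101, 91.8 and 90.4 FPKM with choline and 144, 138 and 148 FPKM with PBS. Cd274, which encodes the checkpoint ligand PD-L1, had 43.9, 41.4 and 42.4 FPKM with choline and 28.4, 27.9 and 27.1 FPKM with PBS, 1.53-fold. The angiogenic factor gene Vegfa had 48.1, 45.7 and 45.2 FPKM with choline and 59.5, 57.6 and 57.9 FPKM with PBS. Arg1, the arginase of alternative activation, was listed at 0 in every choline library and at 0.0763, 0.0384 and 0.232 FPKM in the PBS libraries, too low to be tested. Il10, the anti-inflammatory cytokine gene, was the 1 gene of the table with no read in any choline library and at least 5 in every PBS library (5, 6 and 6 reads), and no gene had the reverse pattern. It is named for its values, and such low counts give no fold change.

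Genes for the use of choline itself moved modestly. Slc44a1, the main choline transporter of the plasma membrane and mitochondria, had 17.9, 18.6 and 19.6 FPKM with choline and 13.2, 14 and 15.2 FPKM with PBS, a log2 change of 0.40 ± 0.0612 (limma, adjusted p = 0.000363). Its relative Slc44a2 averaged 11.3 ± 0.238 FPKM with choline and 10.1 ± 0.116 FPKM with PBS (adjusted p = 0.0214 by limma), a call lost without choline library 1 or 2 or PBS library 1 (adjusted p 0.0508 to 0.087). Chka, choline kinase alpha, had 5.51, 5.68 and 5.44 FPKM with choline and 3.75, 3.73 and 3.76 FPKM with PBS, a log2 change of 0.55. Cept1, which completes phosphatidylcholine and phosphatidylethanolamine, averaged 13.8 ± 0.371 FPKM with choline and 8.90 ± 0.135 FPKM with PBS, and Pisd, which makes phosphatidylethanolamine in mitochondria, 21.5 ± 1.15 FPKM with choline and 13.6 ± 0.379 FPKM with PBS. Pcyt2, the rate-limiting enzyme of the ethanolamine branch, had 16.7, 16.7 and 16.1 FPKM with choline and 33.5, 32.4 and 31.4 FPKM with PBS, a log2 change of -0.97. Over the list 11 of 24 genes were higher and 5 lower, shares of 45.8% and 20.8%.

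Stress genes did not move as one. In the ATF4 and unfolded protein response list 9 of 27 genes were higher and 11 lower (median -0.01). The 4 members with the smallest p were folding factors of the endoplasmic reticulum and were lower. Pdia6 averaged 138 ± 1.26 FPKM with choline and 256 ± 2.43 FPKM with PBS, calreticulin (Calr) 309 ± 4.45 FPKM with choline and 531 ± 10.3 FPKM with PBS, and Sdf2l1 60.3 ± 0.448 FPKM with choline and 122 ± 3.58 FPKM with PBS. The 2 members higher by 2-fold were the stress transcription factor gene Ddit3 (CHOP), at 88.1 ± 0.149 FPKM with choline and 36.2 ± 4.11 FPKM with PBS, and Nupr1, at 274 ± 10.3 FPKM with choline and 134 ± 10.5 FPKM with PBS, both named for their values. Ppp1r15a (GADD34), a phosphatase subunit gene that is outside this list, changed by 1.1. Cytosolic chaperones were mostly lower, 10 of 18 heat shock genes against 3 higher, with Hspa8 at 259 ± 6.15 FPKM with choline and 529 ± 6.30 FPKM with PBS. Of 19 NRF2 response genes 12 were lower and 3 higher. Hmox1, heme oxygenase, had 124, 115 and 109.9 FPKM with choline and 308, 278 and 315 FPKM with PBS, and Pgd of the pentose phosphate pathway 81.5 ± 0.448 FPKM with choline and 164 ± 5.39 FPKM with PBS. Of 27 apoptosis regulators 9 were higher and 7 lower (median 0.01). Fas, the death receptor, averaged 18.4 ± 0.605 FPKM with choline and 9.42 ± 0.449 FPKM with PBS. Bcl2a1a and Bcl2a1b, near-identical survival genes whose reads may be split between copies, changed by 1.36 and 1.11.

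Transcription factors and the cytoskeleton gave further single genes. Klf2, a zinc finger factor, had 30.8, 31.8 and 30.6 FPKM with choline and 14.2, 15.3 and 15.2 FPKM with PBS, while the repressor genes Bhlhe40 and Bhlhe41 changed by -0.86 and -1.19, and over that list 12 of 24 genes were higher and 9 lower. Of 25 actin and podosome genes 14 were lower and 4 higher (median -0.21). Gsn, the actin-severing protein gelsolin, averaged 14.2 ± 1.6 FPKM with choline and 27.2 ± 1.22 FPKM with PBS, and the actin crosslinker Actn1 32.8 ± 1.06 FPKM with choline and 52.6 ± 0.923 FPKM with PBS. Integrins were higher in 5 of 10 and lower in 1, with Itgb7 at 68.8 ± 1.01 FPKM with choline and 37.0 ± 2.18 FPKM with PBS. Growth factors and secreted ligands were lower in 9 of 13 and higher in 2, the lower ones including Pdgfb, at 8.51 ± 1.12 FPKM with choline and 16.6 ± 0.591 FPKM with PBS, and Lif, at 4.30 ± 0.569 FPKM with choline and 8.63 ± 0.41 FPKM with PBS. Of 7 osteoclast genes tested, 3 were higher and 3 lower (median 0.16). The fusion genes Dcstamp and Ocstamp changed by -1.02 and -2.12. Nfatc1, the master regulator of osteoclasts, averaged 7.18 ± 0.303 FPKM with choline and 12.6 ± 0.736 FPKM with PBS. The osteoclast protease gene Ctsk was among the higher ones.

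Lists of the gene expression machinery and of signalling varied in direction. Aminoacyl-tRNA synthetases charge tRNAs with amino acids. Of 38 symbols on that list 20 were found and tested, of which 11 were higher and 7 lower (median 0.19). The annotated pathway of aminoacyl-tRNA synthesis leaned the other way, with 13 of 44 genes higher and 16 lower (median -0.06). Eprs, for glutamate and proline, averaged 179 ± 3.31 FPKM with choline and 132 ± 4.47 FPKM with PBS, while Farsa, a subunit for phenylalanine, averaged 22.6 ± 1.05 FPKM with choline and 35.6 ± 1.22 FPKM with PBS. Core spliceosome and SR protein genes were lower in 18 of 32 and higher in 2, with a median of -0.12. Translation factors had 8 higher and 10 lower of 32, and mTORC1 and nutrient sensing genes 10 higher and 7 lower of 27. Of 14 interferon-stimulated genes 5 were higher and 6 lower. Ifih1, the RNA sensor MDA5, averaged 3.87 ± 0.134 FPKM with choline and 2.27 ± 0.304 FPKM with PBS, and the antiviral synthetase gene Oas3 averaged 1.63 ± 0.23 FPKM with choline and 2.97 ± 0.296 FPKM with PBS. Scavenger and phagocytic receptors were higher in 1 and lower in 4 of 10.

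Further families were defined by symbol alone. Of 12 Fc receptors and paired Ig-like receptors, 9 were higher and none lower, with Fcgr2b, the inhibitory IgG receptor, at 63.7 ± 1.89 FPKM with choline and 38.5 ± 2.43 FPKM with PBS. Of 244 zinc finger genes of the Zfp type, 71 were higher (29.1%) and 32 lower (13.1%), with a median of 0.12. The share higher was near the 28.2% over all genes tested. Over the alternatives, which differ in the genes tested, 26 to 85 Zfp genes were called higher and 15 to 40 lower. Nucleoporins, which form the nuclear pore, were lower in 11 of 19 and higher in 2 (median -0.31), with Nup85 at 15.6 ± 0.392 FPKM with choline and 30.7 ± 0.439 FPKM with PBS. Kinesins, the microtubule motors, were lower in 11 of 24 and higher in 2, with the mitotic Kif20a at -0.79. Among 80 cytosolic ribosomal protein genes, 7 were higher and 5 lower, 8.75% and 6.25% of them. These calls depend on the fit, with 2 to 33 called higher over the alternatives. Of 50 proteasome subunits 12 were higher and 21 lower (median -0.07). Psmb8, a catalytic subunit of the immunoproteasome, changed by -0.74 and Psme1, of its activator, by -0.68. Carbonic anhydrases, with 2 higher and 3 lower of 6, included Car6 at one end and Car12, at 2.94 ± 0.215 FPKM with choline and 7.64 ± 0.298 FPKM with PBS, at the other.

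**Figure D4:**
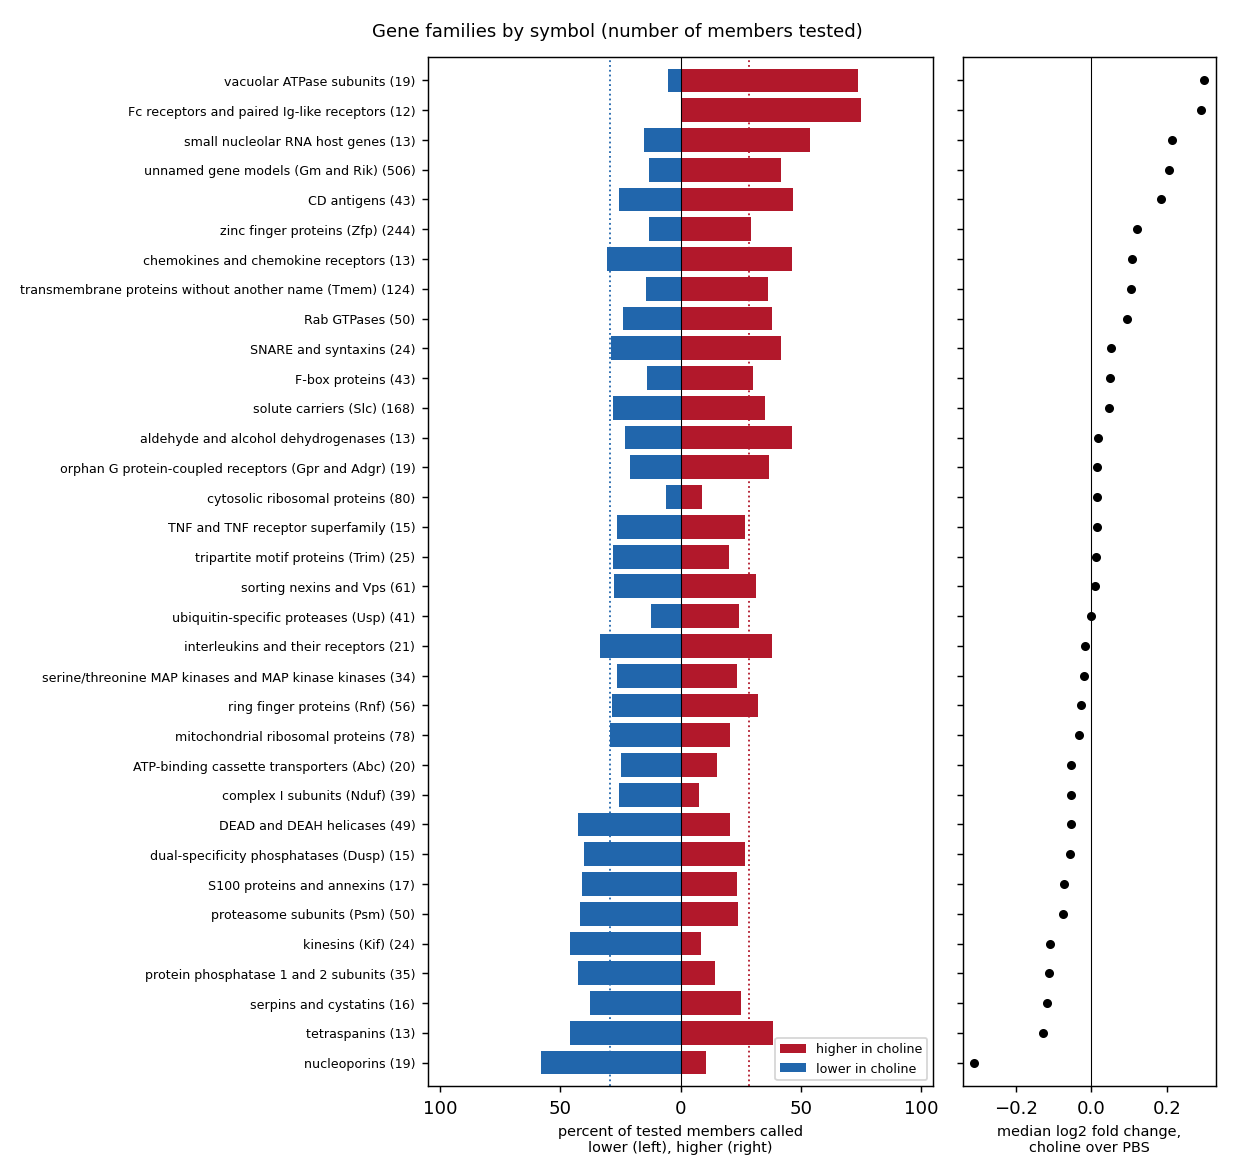
Percent of tested members of each reported symbol-defined family called lower (left, blue) and higher (right, red), for families with 12 or more tested members, with dotted lines at the shares over all genes tested and the median log2 fold change, choline over PBS, as points. Vacuolar ATPase subunits (0.30) and Fc receptors (0.29) have the highest medians and nucleoporins (-0.31) the lowest, and cytosolic ribosomal proteins have the shortest bars when both sides are added.

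Non-coding genes, as the authors' annotation columns class them, leaned to the choline side. Of 420 tested, 193 were higher (46.0%) and 45 lower (10.7%), with a median log2 change of 0.28. Of 9608 protein-coding genes, 2631 were higher (27.4%) and 2885 lower (30.03%), with a median of -0.01. With no filter on low values the non-coding median was 0.04, with 338 of 4653 genes higher and 90 lower. Most non-coding genes were of low level, and the lean was there in each of the 5 equal bins of genes by level. In the lowest bin 110 of 270 non-coding genes were higher and 24 lower, against 377 and 415 of 1736 protein-coding genes. Their share of the FPKM total was 0.959, 0.968 and 0.962% in choline libraries and 0.807, 0.81 and 0.804% in PBS libraries, with no overlap (exact permutation test, two-sided, p = 0.1, the smallest that 3 against 3 libraries allow). Unnamed gene models of either class were higher in 210 of 506 and lower in 66 (median 0.21). Over the alternatives, which differ in the genes tested, 73 to 339 unnamed models were called higher and 28 to 108 lower. Small nucleolar RNA host genes were higher in 7 of 13 and lower in 2, with Snhg12 at 58.3 ± 2.88 FPKM with choline and 34.6 ± 0.413 FPKM with PBS. Whether the counting used strand is not given in the sources used here, so reads of a non-coding gene and of an overlapping gene cannot be told apart.

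**Figure D5:**
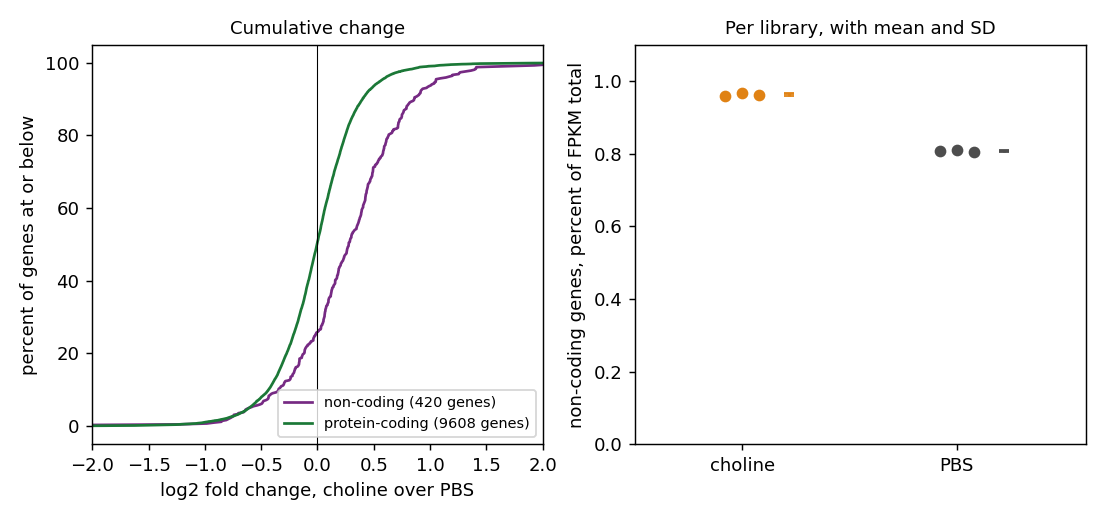
Left, the cumulative percent of genes by log2 fold change, choline over PBS, for 420 non-coding (purple) and 9608 protein-coding genes (green). Right, the share of each library's FPKM total in non-coding genes, with points for libraries and mean ± SD beside them. The non-coding curve lies to the right of the coding one over most of its range (medians 0.28 and -0.01), and all choline libraries (0.959 to 0.968%) lie above all PBS libraries (0.804 to 0.81%).

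By gene length and level the calls were spread widely. Of 5 equal bins by length, the longest, of 6357 bases or more, had 576 genes higher and 438 lower, while the middle bin had 561 higher and 670 lower. By level, the lowest of 5 equal bins had 487 genes higher and 439 lower and the highest 614 higher and 690 lower. By the cell compartments in the deposited annotation, which were picked with results in view, lysosome genes were higher in 115 of 261 and lower in 39, endosome genes higher in 132 of 381 and lower in 90. Kinetochore genes were lower in 56 of 106 and higher in 17, chromatin genes lower in 79 of 186 and higher in 38. Over the 280 annotated pathways with 15 or more tested genes, the medians ran from -0.53 for steroid biosynthesis to 0.20 for collecting duct acid secretion. DNA replication (26 of 35 lower and none higher) and mismatch repair (15 of 22 lower) came next at the low end, and rheumatoid arthritis (27 of 48 higher, 9 lower) at the high end. These rankings follow from the same data and carry no test.

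The make-up of the libraries was compared over the 3 libraries of each group. At 1 FPKM or more, 9984, 9952 and 9927 genes were detected in choline libraries and 9922, 9918 and 9898 in PBS libraries, a difference of 41.7 genes (exact permutation test, two-sided, p = 0.1, the smallest possible). The 20 most abundant genes held 17.9, 17.9 and 18.4% of the FPKM total in choline libraries and 17.2, 16.8 and 17.8% in PBS libraries, a difference of 0.82 percentage points (exact permutation p = 0.1). The mitochondrially encoded genes took 3.38, 3.58 and 3.88% of reads with choline and 3.58, 3.34 and 3.97% with PBS, overlapping throughout (exact permutation p = 1).

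Promoter motifs were counted in the RefSeq windows of the 8142 tested genes that have one, on both strands, for 14 motifs. The amino acid response element core TGATGNAA was in the windows of 10 of 88 genes higher by at least 2-fold (11.4%), of 0 of 81 genes lower by at least 2-fold, and of 178 of all 8142 (2.19%). The 10 genes include Avil, Pi16 and Nupr1, and also the near-copies Bcl2a1a and Bcl2a1b, which are not independent. The AP-1 motif TGANTCA was in 11.4% of windows of the genes higher by 2-fold, 3.70% of those lower by 2-fold and 4.72% of all. The GC box GGGCGG was in 44.3% of windows of the genes higher by 2-fold, 72.8% of those lower by 2-fold and 66.0% of all. The hypoxia response core ACGTG was in 28.4% of windows of genes lower by 2-fold and 27.8% of all, and in the 200 bases before the start in 17.3% and 19.9%. In the full window it was in 10 of 19 windows of hypoxia list genes and 10 of 19 of glycolysis genes (52.6% each), some genes standing in both lists. The CCAAT box CCAAT was in 15 of 16 windows of cholesterol synthesis genes (93.8%), 19 of 26 of mitotic cell cycle genes (73.1%) and 39.9% of all. The motifs can overlap each other, and these shares are a description of letters with no test.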

How the data were processed

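Total RNA of 3 choline and 3 PBS BMDM libraries, extracted with TRIzol per the labels' protocols, was sequenced. The authors deposited FPKM values per gene. The submitters' processing notes name build GRCm39. Which aligner and counter were run, and whether strand was used, is not given in the sources used here. The authors' estimated counts of the tumors, also deposited, gave only library totals (15844794 to 24181897), and 6 tumor columns of FPKM were not used. The BMDM columns were named by their headings. All 19496 named genes had values that were whole reads to within 0.01 reads at a fitted gene length. Of 500 shuffled genes 0 did so, but these were counted only under a limit on the fitted length. Named genes had no such limit, so the counts are not like for like. Genes of few reads had no shuffled check of their own. The 2 rows without a name were left out. With reads outside the rows they make up 0.259 to 0.276% of each library's FPKM scale. Replicates differed by more than counting noise (chi-square per degree of freedom 4.77 to 13.6), so none was counted as a repeat deposit.

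Genes that reached 1 FPKM in 3 libraries or more were tested with limma 3.58.1 (R 4.3.3) on log2(FPKM + 0.1), with trended robust variances, two-sided, at an adjusted p of 0.05. The alternatives were edgeR 4.0.16 and DESeq2 1.42.0 on the recovered reads, other pseudocounts, filters and scalings, leaving out each library, and for promoter motifs a window of only the 200 bases before the start. Named genes are the 15 highest and 15 lowest fold changes among called genes of at least 5 FPKM in the higher group without overlap (unnamed models and copies left out), the 10 largest gains and losses, the most abundant 5, up to 4 genes per list by p, up to 3 per family by size, and genes of choline uptake and macrophage activation. The members, lists, families and motifs were chosen with earlier results of these data known. A few genes and gene groups that the rule names are not reported here. Promoters are from RefSeq (GRCm38.p6).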

Additional observations from a re-analysis of the deposited data

How the results depend on the processing

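The number of genes called stayed within 1.5 times of 5754 in all 17 alternatives. Leaving out 1 library at a time gave 4867 to 5647 genes in all, 2292 to 2744 of them higher and 2471 to 2903 lower, and 184 to 213 with a 2-fold change (86 to 120 higher, 87 to 118 lower). The count of 2-fold changes (218, with 114 higher and 104 lower) moved by more than 1.5 times under these alternatives. It was 114 (60 higher, 54 lower) with a pseudocount of 1 and 125 (60 higher, 65 lower) with a filter at 5 FPKM. It was 350 (205 higher) with no filter, 488 (304 higher, 184 lower) by edgeR with TMM, 492 (303 higher, 189 lower) by edgeR with RLE and 462 (279 higher, 183 lower) by DESeq2 on the recovered reads. These fits differ in model, unit and filter at once, and the cause was not tested. All 30 genes of highest and lowest fold change were called the same way in every alternative that tested them, and 291 of the 299 named genes called were. These genes were picked as called in the same libraries, the 30 also as without overlap, so this is a weak check. Reversals were limited to Spp1 under quantile normalization (-0.036) and to COX1, not called, without single libraries (-0.0638 to 0.0452). The difference in detected genes, 41.7, was 124 at 0.1 FPKM and -30.7 at 5 FPKM. The difference in the share of the most abundant genes, 0.82 points for 20 genes, was 0.174 for 100. Rescaling without the mitochondrially encoded genes, chosen after seeing the data, called 2964 genes higher and 2899 lower. No scaling moved the median of all genes by more than 0.0155. No paired analysis was possible because 2 of the PBS columns carry the same heading, so the groups share fewer than 2 numbers. Of the tested genes, 347 averaged under 100 reads per library, where counting error limits the fold change.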
